A study of Mus musculus with 16 samples.

Results

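The transcripts of 9 apolipoprotein genes (Apoa1, Apoa2, Apoa4, Apoa5, Apoc1, Apoc2, Apoc3, Apoe and Apoh) and of Lcat were followed in mouse liver. They were taken by gene symbol and make up 10 of the 35502 genes counted. Liver RNA came from 16 individual mice, with 4 mice in each of 4 groups. Mature LERKO and immature LERKO mice carry cre and lack oestrogen receptor alpha (gene Esr1) in the liver by design. Mature and immature control mice carry the floxed allele without cre. The labels name sexual maturity as the stage. They do not say whether it refers to the time of deletion or to that of collection. The sources used here give no promoter for cre, no strain, no age and no sex. The question put to these genes is how their levels differ between LERKO and control livers at each stage, and between the stages.

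Apolipoproteins are the protein coats of lipoproteins, the particles that carry cholesterol and triglyceride in blood. The liver secretes most of them. ApoA-I and ApoA-II are the main proteins of high-density lipoprotein, and ApoA-I activates LCAT, the plasma enzyme that esterifies cholesterol on these particles. ApoC-II activates lipoprotein lipase, ApoC-III restrains triglyceride clearance, ApoA-V promotes it, and ApoE is the ligand by which receptors take up remnant particles. Oestrogens are known to alter plasma lipoproteins, and oestrogen receptor alpha is their main receptor in hepatocytes.

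Of the 10 genes, 7 lie in 2 gene clusters. Coordinates come from GENCODE vM21 (GRCm38). Apoa1 (46228580 to 46230466, forward), Apoc3 (46232933 to 46235636, reverse), Apoa4 (46240696 to 46243459, forward) and Apoa5 (46268633 to 46271919, forward) share 43.3 kb of chromosome 9. Apoc2 (19671579 to 19677941), Apoc1 (19689481 to 19692660) and Apoe (19696109 to 19699188) share 27.6 kb on the reverse strand of chromosome 7. Apoa2 lies alone on chromosome 1 (171225054 to 171226379, forward), Apoh on chromosome 11 (108343354 to 108414396, forward) and Lcat on chromosome 8 (105939551 to 105943382, reverse).

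The oestrogen receptor binds a palindrome whose consensus is the arm GGTCA, any 3 bases, and the facing arm TGACC. RefSeq promoter windows on GRCm38.p6, each covering the 250 bases before the RefSeq start of the gene, were found for 8 of the 10 genes and were searched on both strands. That start is the GENCODE start for Apoa2, Apoa5, Apoc2 and Apoe, but lies 50 bases inside the printed gene for Apoa1, 148 for Apoa4 and 51943 for Apoh, and outside it for Lcat, so the Apoh window is not at the first GENCODE start. The whole palindrome was in 0 of the 8 windows and in 0.0645% of all 32536 windows of that length. A single arm was in 4 of the 8 (Apoa5, Apoc2, Apoe and Apoh) and in 35.3% of all windows. The hepatocyte factor motif CAAAGTNCA was in 1 of the 8, that of Apoa4, and in 1.2% of all windows, and TATAAA was in 2 of the 8 and in 12.3% of all. A letter match is a description of the sequence and not a binding site. The 3 windows printed here show the range, with GGTCA, or TGACC where it reads on the other strand, in capitals. The window of Apoa5 (chr9:46268383-46268632, forward strand) holds both arms, facing each other, at positions -128 and -115 from the start, with 8 bases between them in place of the 3 of the consensus. That of Apoe (chr7:19699189-19699438, reverse strand) holds 1 arm at -27. That of Apoa2 (chr1:171224804-171225053, forward strand) holds none.
Apoa5: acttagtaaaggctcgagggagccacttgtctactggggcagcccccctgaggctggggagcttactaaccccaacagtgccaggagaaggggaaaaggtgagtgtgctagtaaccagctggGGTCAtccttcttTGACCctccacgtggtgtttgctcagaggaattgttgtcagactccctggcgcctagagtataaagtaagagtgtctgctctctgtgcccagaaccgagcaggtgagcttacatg
Apoe: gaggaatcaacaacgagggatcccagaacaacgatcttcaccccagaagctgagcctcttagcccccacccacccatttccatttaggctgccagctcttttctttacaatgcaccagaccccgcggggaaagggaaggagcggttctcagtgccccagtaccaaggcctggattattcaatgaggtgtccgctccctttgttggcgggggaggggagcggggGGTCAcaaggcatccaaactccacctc
Apoa2: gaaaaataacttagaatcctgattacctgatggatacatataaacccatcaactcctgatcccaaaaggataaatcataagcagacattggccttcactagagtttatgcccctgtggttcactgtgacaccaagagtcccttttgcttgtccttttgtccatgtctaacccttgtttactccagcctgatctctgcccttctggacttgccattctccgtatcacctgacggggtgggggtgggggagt

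Library totals were 18123974 to 23213905 counts, and the 10 genes took 3.837 to 6.082% of them. Esr1, the deleted gene, stood at 16.3 ± 2.19 CPM in mature LERKO and 82.2 ± 19.1 CPM in mature control livers, and at 13.0 ± 2.19 CPM in immature LERKO and 73.6 ± 15.8 CPM in immature control livers (SD, n = 4 each). CPM here means counts brought to the same sequencing depth with TMM factors. Some features of single libraries bear on the values below. Library 4 of mature LERKO held 187600 CPM of 26 summed acute-phase transcripts, proteins that hepatocytes make in inflammation, against 30560 to 41670 CPM in the other 15. Skeletal muscle transcripts summed to at most 2.18 CPM in mature LERKO livers, to 827.9, 352.8, 0.67 and 52.79 CPM in mature controls, to 148.7 CPM in library 4 of immature LERKO and to at most 1.09 CPM in the other immature livers. Hepatocyte markers summed to 128100 to 170800 CPM in every library. Of the markers of enterocytes, the other main source of apolipoproteins, Sis, Alpi, Cdx1, Cdx2, Muc13 and Reg3g, 6 of 11, were at 0 in all libraries. Vil1, Lct and Reg3b reached at most 0.311, 0.0558 and 0.0592 CPM, while Fabp2 had 41.9 to 178 CPM and Apob, which hepatocytes also make, 3711 to 5659 CPM.

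Per exonic length the 10 genes spanned the top of the liver transcriptome. Apoe ranked 2 of 13378 genes with 33772 ± 3752 TPM (counts per exonic length, scaled to a common total; SD over 16 libraries), Apoa2 ranked 3 with 27354 ± 4155 TPM, Apoa1 ranked 5 with 19406 ± 5083 TPM and Apoc1 ranked 8 with 14238 ± 2825 TPM. A middle tier followed, of Apoh (3611 ± 315 TPM), Apoc3 (3585 ± 455 TPM), Apoa5 (1803 ± 307 TPM) and Lcat (1072 ± 131 TPM). Apoc2 (778 ± 131 TPM) and Apoa4 (670 ± 213 TPM) were lowest, at ranks 157 and 185, where the place of Apoc2 is uncertain because a gene model that overlaps it holds 173% of its count. The gap between Apoc1 and Apoh and that between Apoc3 and Apoa5 separated all 16 libraries, whereas the ranges of all other neighbours overlapped. Apoe was above Apoa2 and Apoa5 above Lcat in 16 of 16 livers, but Apoh was above Apoc3 in only 8 of 16. All these are levels of transcripts, and protein was not measured.

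**Figure D1:**
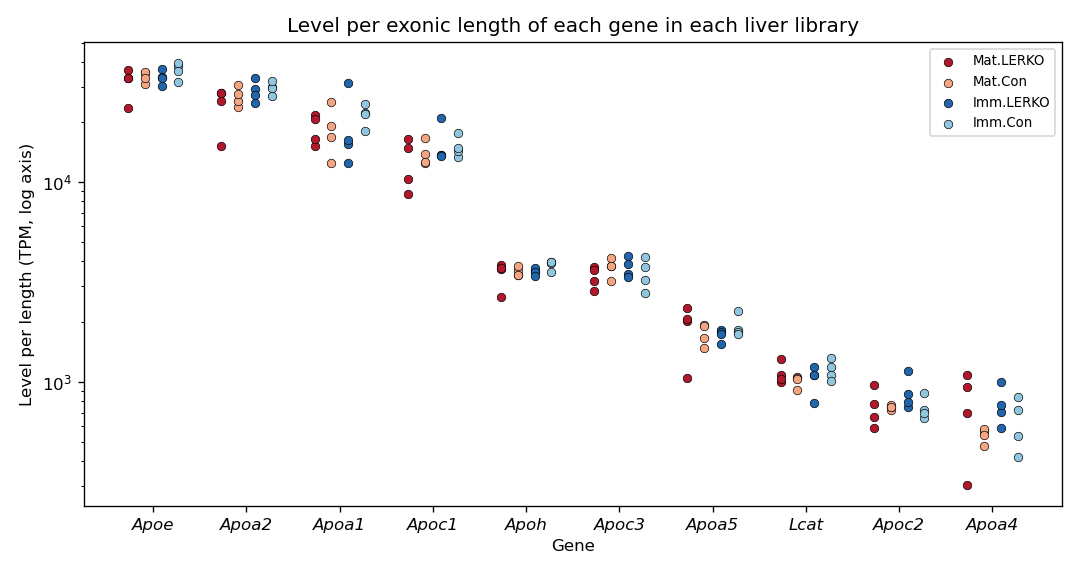
Level of each gene in each liver, in TPM on a log axis, with 1 point per library and the groups side by side within a gene. Apoe, Apoa2, Apoa1 and Apoc1 form the upper tier (8697 TPM and above in every library), and Apoa4 has the widest spread of points.

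Mice of 1 group differed in some of these genes far more than in others. The within-group SD of the log2 level was 0.52 for Apoa4 and 0.40 for Apoa1, against 0.10 for Apoh and 0.13 for Apoe. Among the 524 genes at or above the level of the lowest of the 10, the median SD was 0.235, and Apoa4 was at percentile 89.7, Apoa1 at 81.3, Apoe at 14.7 and Apoh at 5.53. The intervals given below are accordingly narrow for Apoh and Apoe and wide for Apoa4 and Apoa1.

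Apoa1, which encodes the main high-density lipoprotein protein, had 7002, 9670, 9417 and 9221 CPM in mature LERKO livers, against 8826, 5559, 7769 and 11490 CPM in mature controls. All 4 LERKO values lay inside the range of the controls, and the log2 fold change was 0.07 (SE 0.27). Immature LERKO livers had 5571, 15350, 7978 and 7122 CPM, against 12000, 10790, 10630 and 9374 CPM in immature controls. Here 3 of the 4 LERKO livers were below every control, while library 2 was the highest of all 16, and the log2 fold change was -0.25 (SE 0.27). Without that library it was -0.64, which did not pass the test either.

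Apoa2, the second protein of high-density lipoprotein, had 5592, 4909, 5530 and 3690 CPM in mature LERKO livers, against 4786, 5975, 5136 and 5477 CPM in mature controls (log2 fold change -0.12, SE 0.16). Library 4 was the lowest of the 16 and the other LERKO livers lay among the controls. In immature mice LERKO livers had 5653, 5291, 7430 and 5227 CPM, against 6308, 5686, 6201 and 7205 CPM in controls, with overlapping groups and a log2 fold change of -0.11 (SE 0.16). The ratio of Apoa1 to Apoa2 per length was 0.806 ± 0.226 in mature LERKO, 0.694 ± 0.219 in mature control, 0.687 ± 0.389 in immature LERKO and 0.74 ± 0.123 in immature control livers (SD, n = 4 each), so the groups differed by less than their spread.

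Apoa4, a lipid-binding apolipoprotein that the intestine also makes, had the largest difference among the 10 genes in mature mice. It stood at 472.5, 611.5, 201.7 and 890.5 CPM in mature LERKO livers, against 384.2, 312.4, 393.3 and 360 CPM in mature controls. LERKO libraries 1, 2 and 4 were above every control, and library 3 was the lowest of the 16. The log2 fold change was 0.59 (SE 0.31, 95% interval -0.08 to 1.25), with an unadjusted p of 0.0807 and an adjusted p of 0.711 (edgeR quasi-likelihood test). Without library 4, the liver with the high acute-phase transcripts, it was 0.27, and without library 3 it was 0.87. Immature LERKO livers had 649.4, 419.8, 527.8 and 489.6 CPM, against 514.6, 382.5, 590.6 and 318.8 CPM in immature controls, and the groups overlapped (log2 fold change 0.21, SE 0.31).

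Among the genes that act on triglyceride, Apoa5, which promotes lipolysis, had 1895, 1867, 2160 and 1199 CPM in mature LERKO livers, against 1401, 1752, 1558 and 1772 CPM in mature controls. LERKO libraries 1 to 3 exceeded every control and library 4 was the lowest of the 16, so that the log2 fold change of 0.14 (SE 0.16) became 0.31 without library 4. In immature mice, LERKO livers had 1652, 1766, 1800 and 1382 CPM, against 1797, 2247, 1738 and 1837 CPM in immature controls, with overlap and a log2 fold change of -0.21 (SE 0.16).

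Apoc3, the inhibitor of triglyceride clearance, varied little with genotype. Mature LERKO livers had 1426, 1041, 1349 and 1473 CPM, against 1435, 1525, 1216 and 1421 CPM in mature controls, a log2 fold change of -0.08 (SE 0.15). In immature livers the values were 1267, 1341, 1795 and 1398 CPM in LERKO and 1114, 1495, 1674 and 1369 CPM in controls, a log2 fold change of 0.04 (SE 0.15). The 95% interval ran from -0.29 to 0.36 in immature mice, and the groups overlapped at both stages.

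Apoc2, the activator of lipoprotein lipase, had 235.7, 193.5, 174.6 and 355.6 CPM in mature LERKO livers, against 219.8, 218, 231.1 and 222.6 CPM in mature controls. The controls lay between 218 and 231.1 CPM, while the LERKO livers spread to both sides of them (log2 fold change 0.11, SE 0.20, and -0.12 without library 4). Immature LERKO livers had 253.1, 239.5, 381.6 and 228.5 CPM, against 229.8, 210.9, 278.8 and 238.6 CPM in immature controls (log2 fold change 0.20, SE 0.20), and without library 3 of immature LERKO the log2 fold change was 0.00. Gm44805, a gene model on the same strand that shares 646 exonic bases with Apoc2, had a total of 135006 counts to 77936 for Apoc2, so how reads of this region were divided is uncertain.

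Apoc1, a small apolipoprotein that in human plasma inhibits cholesteryl ester transfer, had 4113, 2782, 4458 and 2935 CPM in mature LERKO livers, against 3476, 4484, 3845 and 3479 CPM in mature controls (log2 fold change -0.10, SE 0.21). In immature mice it had 3688, 4008, 6437 and 3565 CPM in LERKO and 3904, 4204, 4314 and 5490 CPM in control livers (log2 fold change -0.02, SE 0.21). Immature LERKO library 3 was the highest of the 16 for Apoc1, Apoc2, Apoc3 and Apoa2, and without it the Apoc1 value was -0.26.

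Apoe, the remnant receptor ligand, made up 44.78 to 57.23% of the summed CPM of the 10 genes. It had 29010, 25410, 26100 and 22730 CPM in mature LERKO livers, against 24810, 27150, 28470 and 26150 CPM in mature controls, a log2 fold change of -0.05 (SE 0.13). At the immature stage LERKO livers had 28590, 25390, 29650 and 25160 CPM, against 32280, 30270, 26610 and 35250 CPM in immature controls. Of these controls 3 were above every LERKO liver and library 3 was not (log2 fold change -0.19, SE 0.13, 95% interval -0.47 to 0.09).

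Apoh encodes beta-2-glycoprotein I, a phospholipid-binding plasma protein. It had 2198, 2196, 2159 and 1927 CPM in mature LERKO livers, against 2041, 2079, 2045 and 2219 CPM in mature controls. The log2 fold change of 0.02 (SE 0.11) had the narrowest 95% interval of the 10 genes, from -0.21 to 0.24. Immature mice had 2065, 2328, 2344 and 1915 CPM with the knockout, against 2486, 2454, 2216 and 2672 CPM in immature controls. As with Apoe, 3 of the 4 controls exceeded every LERKO liver, and the log2 fold change was -0.18 (SE 0.11, unadjusted p = 0.102, adjusted p = 1.0, edgeR quasi-likelihood test).

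Lcat, the cholesterol-esterifying enzyme, had 499.3, 623.9, 529.2 and 630.1 CPM in mature LERKO livers, against 456.9, 509.6, 523.9 and 509.2 CPM in mature controls. LERKO libraries 2, 3 and 4 were above every control (log2 fold change 0.19, SE 0.15). Immature LERKO livers had 572.8, 571.1, 599.9 and 373.6 CPM, against 626.3, 566.5, 530.3 and 742.3 CPM in immature controls, and the low value of library 4, the immature liver with muscle transcripts, was the lowest of the 16 (log2 fold change -0.22, SE 0.15). Without that library the Lcat value was -0.08, and without library 4 of the immature controls, the highest of the 16, it was -0.12.

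**Figure D2:**
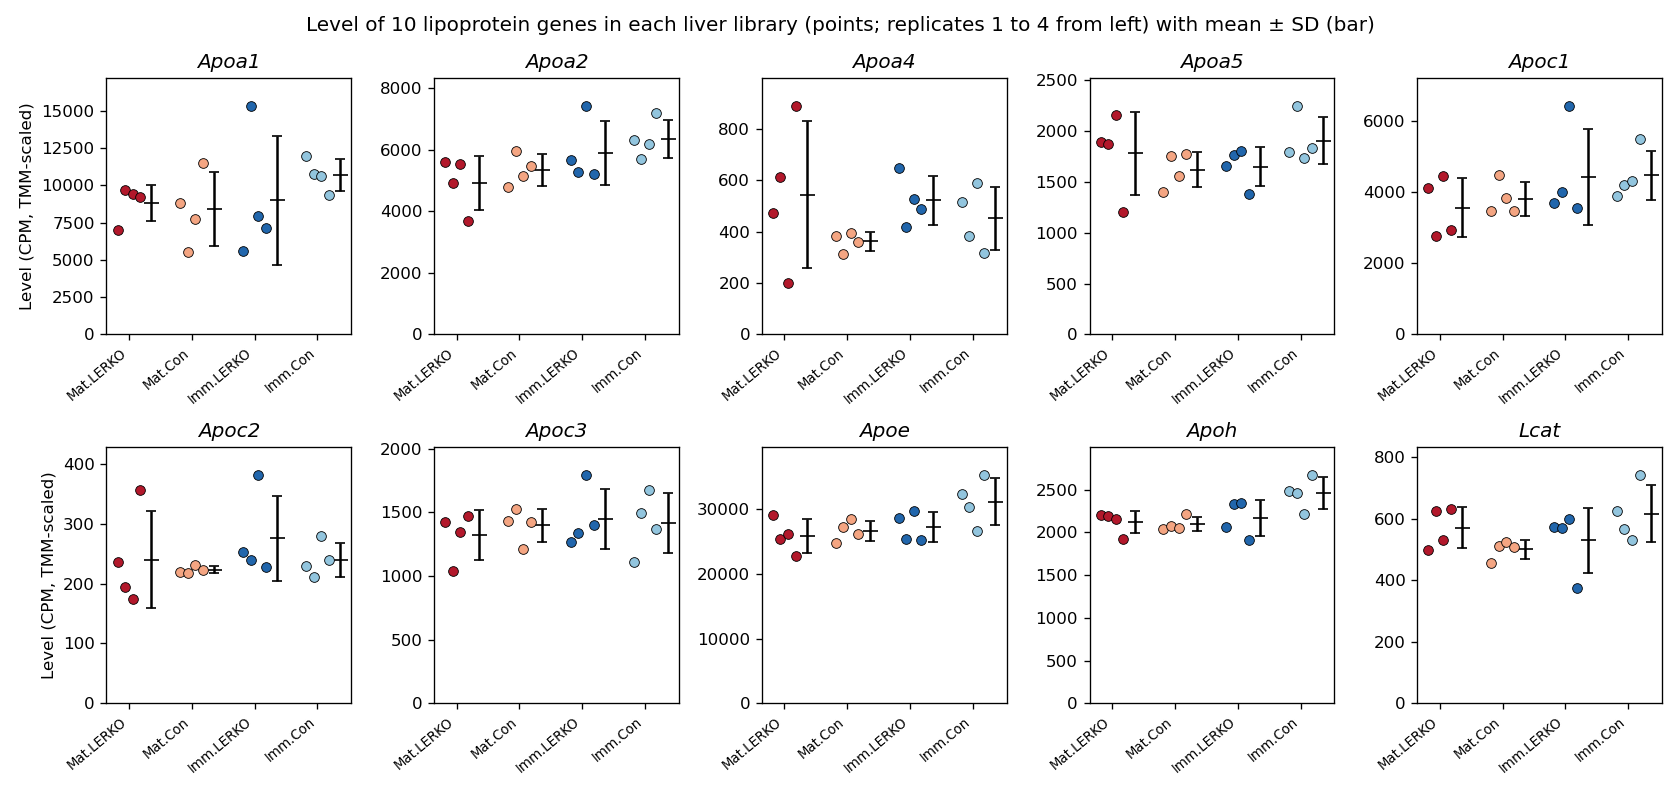
Level of each gene in CPM (linear axis from 0) in each of the 16 livers, by group, with LERKO left of its control at each stage. Points are libraries and bars are mean ± SD (n = 4), and the LERKO and control points overlap in all 10 genes at both stages.

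None of the 10 genes passed the test for LERKO against control. In mature mice 0 of 10 were called at an adjusted p below 0.05 (edgeR), against a background of 0.00747% of the 13379 genes tested, which is Esr1 alone. An unadjusted p below 0.05 was reached by 0 of the 10 and by 7.3% of all genes. In immature mice both counts were again 0 of 10, against 0.00747% and 2.76% of all genes. DESeq2 and limma-voom called 0 of the 10 in either comparison as well. DESeq2 gave 1 of the 10 an unadjusted p below 0.05 in immature mice, against 2.84% of all genes, and 0 in mature mice, against 7.69%. LERKO and control livers did not separate for any of the 10 genes at either stage, where 3.9% of all genes separated in mature and 1.63% in immature mice.

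The intervals bound what these 16 livers allow. In mature mice the 95% interval of the fold change lay within 1.5-fold either way for 8 of the 10 genes, all but Apoa1 and Apoa4, and within 2-fold for 9, all but Apoa4, where 58.5% and 81.2% of all genes did so. In immature mice it lay within 1.5-fold for 7, all but Apoa1, Apoa4 and Apoc2, and within 2-fold for 10. Of all genes 61.6% and 83.4% did so. Directions were mixed. In mature mice 6 log2 fold changes were positive and 4 negative, with a median of 0.04 beside -0.01 for all genes. Without library 4 of mature LERKO 8 were positive and 2 negative, since Apoa2 (0.03), Apoc1 (0.01) and Apoe (0.04) turned positive and Apoc2 turned negative. In immature mice 3 were positive and 7 negative, with a median of -0.15 beside 0.01. That median was -0.07 without library 4 of immature LERKO, with 4 positive, and -0.23 without library 3, with 2 positive. Averaged over both stages, Apoa4 was the farthest from 0, at 0.40 (SE 0.22, unadjusted p = 0.0924, adjusted p = 0.999, edgeR). In that average 0.00747% of all genes were called and 3.69% had an unadjusted p below 0.05 (0 of the 10). The interval lay within 1.5-fold for 9 of the 10, and for 76.8% of all genes.

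Log2 fold changes of stellate and endothelial markers between LERKO and control livers went in opposite directions at the 2 stages. In mature mice all 12 stellate and all 12 endothelial markers had negative log2 fold changes, with medians of -0.63 and -0.42, which were -0.33 and -0.19 when library 4 of mature LERKO was left out. Stellate markers summed to 167 to 600.1 CPM in mature LERKO and 644.7 to 826 CPM in mature control livers, and endothelial markers to 138.8 to 356.8 CPM and 316 to 448.7 CPM in the same groups. In immature mice all 12 stellate, all 12 endothelial and all 6 tested cholangiocyte markers were positive, with medians of 0.25, 0.32 and 0.30. Stellate sums overlapped, at 370.2 to 723.6 CPM in immature LERKO and 396.4 to 524.6 CPM in immature control livers. Endothelial sums overlapped too, at 208.8 to 422.1 CPM and 207 to 317.3 CPM in the same groups. Library 4 of immature LERKO, the immature liver with muscle transcripts, had the highest of both sums. The other immature LERKO libraries had 370.2, 569.1 and 464 CPM for stellate cells and 208.8, 334.4 and 260.9 CPM for endothelium. Kupffer cell markers were negative for 11 of 12 in mature mice (median -0.23) and positive for 9 of 12 in immature mice (median 0.03). Of the 6 tested cholangiocyte markers, 3 were positive and 3 negative in mature mice (median -0.12). No marker was called. In mature mice 5 of 12 stellate and 0 of 12 endothelial markers had an unadjusted p below 0.05 (edgeR), against 7.3% of all genes. In immature mice 0 of 12 stellate and 0 of 12 endothelial markers did, against 2.76%. The part of these markers in the apolipoprotein values was not tested.

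**Figure D3:**
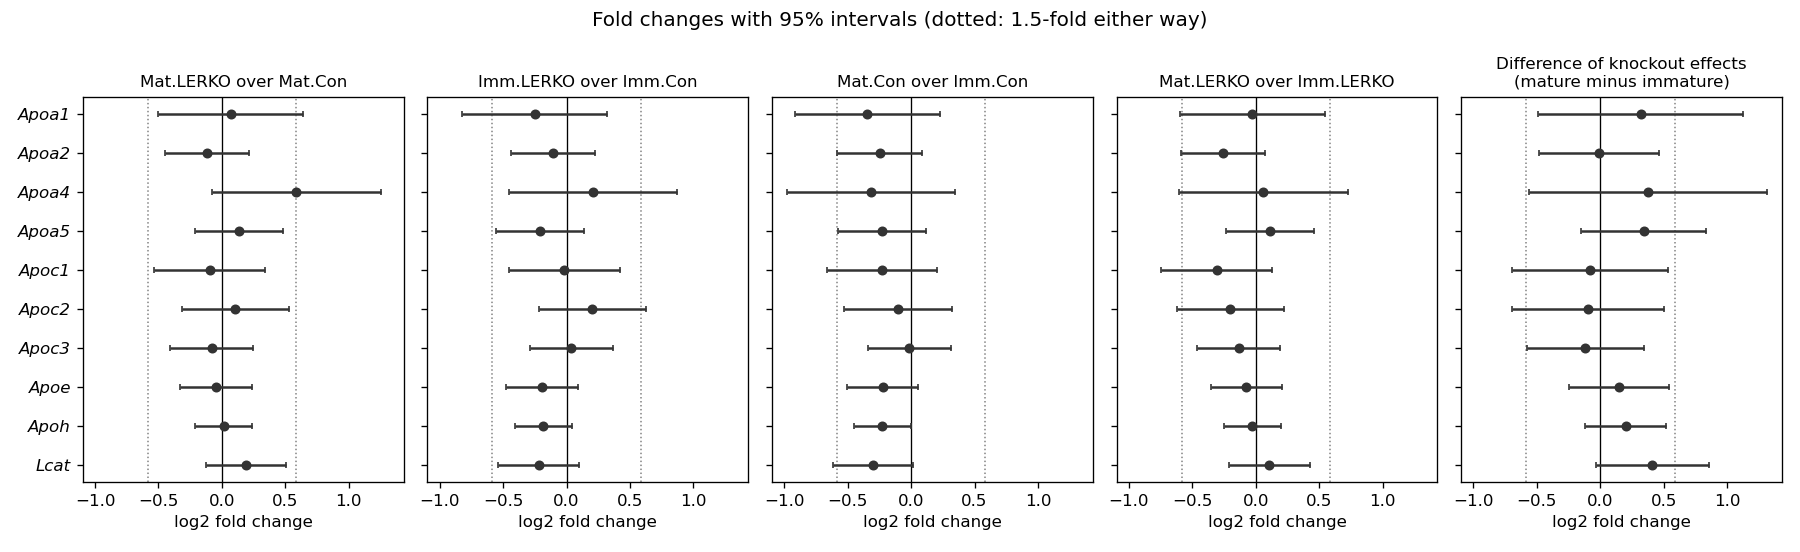
Log2 fold change of each gene in 4 comparisons and the difference of the knockout effects, with points for the estimate and bars for its 95% interval from edgeR. Dotted lines mark 1.5-fold, and in the third panel, mature over immature controls, all 10 points lie left of 0 (9 when scaled by library size alone).

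Between the stages, all 10 genes had negative log2 fold changes in control livers, lower in mature than in immature mice, though none passed the test. The median was -0.23 beside 0.02 for all genes, of which 46.9% were negative. Apoa1 had -0.35 (SE 0.27), Apoa4 -0.32 (SE 0.31), Lcat -0.30 (SE 0.15) and Apoh -0.23 (SE 0.11). No gene at all was called at an adjusted p below 0.05 (0%), and the smallest adjusted p among the 10 was 0.498, for Apoh (edgeR). An unadjusted p below 0.05 was reached by 1 of the 10, Apoh at 0.0461, against 9.84% of all genes. Lcat was the 1 gene whose groups did not overlap. Its mature controls had at most 523.9 CPM and its immature controls at least 530.3 CPM, and 2.75% of all genes separated in that direction. DESeq2 and limma-voom called 0 of the 10, with 3 and 1 at an unadjusted p below 0.05, against 10.6% and 9.4% of all genes. With quality weights limma-voom also called 0, with 5 of the 10 and 2315 of 13379 genes at an unadjusted p below 0.05. An edgeR fit to the compared groups alone called 0, with 3 of the 10 and 2107 of 12922 genes there. Scaling by library size alone, which moved the median of all genes to 0.10, left 9 of the 10 negative, with Apoc3 at 0.07. With library 3 of the mature controls left out, or library 2 or 3 of the immature controls, 9 were negative. Genes of 1 liver are not independent, so 10 of 10 is a description.

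Markers of other liver cells differed between the same control groups. All 12 Kupffer cell, all 12 stellate cell and all 12 endothelial markers had positive log2 fold changes, with medians of 0.64, 0.56 and 0.73. The 6 tested cholangiocyte markers did not share this direction, with 2 positive, 4 negative and a median of -0.01. Summed Kupffer cell markers were 401.1 to 544.5 CPM in mature and 209.2 to 410.5 CPM in immature controls. Stellate markers summed to 644.7 to 826 CPM in mature and 396.4 to 524.6 CPM in immature controls, and endothelial markers to 316 to 448.7 CPM and 207 to 317.3 CPM in the same groups. Hepatocyte markers summed to 128100 to 157900 CPM in mature and 141400 to 169200 CPM in immature controls, with 7 of 10 negative and a median of -0.08. In whole liver, fewer hepatocytes and less apolipoprotein RNA per hepatocyte cannot be told apart, and the part of the cell markers in the 10 values was not tested. Muscle transcripts were also higher in mature controls, and without the 3 libraries that held most of them, which leaves 2 mature controls, the median of the 10 genes was -0.21, with 10 of 10 negative.

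In LERKO livers the 10 genes did not share a direction between stages. Mature against immature LERKO gave 3 positive and 7 negative log2 fold changes, with a median of -0.05 beside 0.00 for all genes. Apoc1 had -0.31 (SE 0.21), Apoa2 -0.26 (SE 0.16), Apoa5 0.11 (SE 0.16) and Lcat 0.11 (SE 0.15). Single libraries moved each of them. Apoc1 had -0.07 and Apoa2 -0.13 without library 3 of immature LERKO, and without library 4 of mature LERKO Apoa2 had -0.14. Apoa5 had 0.00 without library 3 of mature LERKO, and Lcat -0.03 without library 4 of immature LERKO. By edgeR 0 of 10 were called, against 0% of all genes, and 0 of 10 had an unadjusted p below 0.05, against 4.93%. DESeq2 and limma-voom called 0 as well. Library 2 of immature LERKO set the value of Apoa1, which was -0.03 with it and 0.36 without it. Averaged over both genotypes the stage difference was negative for all 10 genes (9 without library 4 of mature LERKO or library 2 of immature LERKO), with a median of -0.14 beside 0.02 for all genes. By edgeR Apoa2 alone had an unadjusted p below 0.05 there (log2 fold change -0.25, SE 0.11, unadjusted p = 0.0359, adjusted p = 0.603, edgeR), where 7.92% of all genes did and 0% were called. DESeq2 gave 4 of the 10 an unadjusted p below 0.05, against 8.74% of all genes, and limma-voom 1, against 7.32%.

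The difference of the knockout effect between stages was tested directly. Lcat had the largest value, 0.41 (SE 0.21, 95% interval -0.04 to 0.86), with a positive fold change in mature and a negative one in immature mice, but it did not pass (unadjusted p = 0.0702, adjusted p = 0.774, edgeR). Apoa4 followed with 0.38 (SE 0.44), Apoa5 with 0.34 (SE 0.23) and Apoa1 with 0.32 (SE 0.38). Called genes numbered 0 of 10, against 0% of all genes, and 0 of 10 had an unadjusted p below 0.05, against 6.35%. DESeq2 and limma-voom again called 0. The interval lay within 1.5-fold for 4 of the 10, and for 38.5% of all genes. Without library 4 of immature LERKO the Lcat value was 0.28, and without the 3 libraries with most muscle transcripts and library 4 of mature LERKO it was 0.18. Without library 4 of mature LERKO the Apoa4 value was 0.05, and without library 2 of immature LERKO that of Apoa1 was 0.71.

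The genes around them in lipoprotein metabolism were read from 6 lists. The first held other apolipoproteins together with related genes, among them Pon1, Pon3 and Apobec1, which do not encode apolipoproteins. Of its 13 genes tested, 0 were called in either knockout comparison, and their medians were 0.07 in mature and -0.11 in immature mice. Apob, the structural protein of very-low-density lipoprotein, had 4936 ± 502 CPM in mature LERKO and 3916 ± 174 CPM in mature control livers (SD, n = 4 each), and its log2 fold change was 0.33 (SE 0.12, adjusted p = 0.592, edgeR). Apof and Clu, the genes of that list with the highest levels per length (1224 and 1213 TPM), had 0.25 (SE 0.17) and 0.34 (SE 0.19) in mature mice. Clu had 1840 ± 669 CPM in mature LERKO and 1450 ± 146 CPM in mature control livers. The genes of that list summed to 12040 CPM in library 4 of mature LERKO, the liver with the high acute-phase transcripts. In the other mature LERKO libraries they summed to 9449 to 10270 CPM. In immature mice Apob had -0.10 (SE 0.12), Apof -0.07 (SE 0.17) and Clu -0.24 (SE 0.19).

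Of 14 genes for lipoprotein assembly and secretion, 0 were called, with medians of 0.06 in mature and -0.02 in immature mice; P4hb, the small subunit of the microsomal triglyceride transfer complex, had 0.26 (SE 0.12) in mature mice. The 17 lipoprotein receptors and binding partners had a median of 0.07 in both comparisons with 0 called, and Lsr, a receptor for triglyceride-rich particles, had 0.27 (SE 0.14) and Sdc1, a remnant-binding heparan sulphate proteoglycan, 0.34 (SE 0.19) in mature mice. The receptor list summed to 3470 CPM in library 4 of mature LERKO and to 2299 to 2634 CPM in the other mature LERKO libraries. Among 15 plasma lipases and remodelling proteins 0 were called, with medians of -0.05 and -0.06. Itih4, an acute-phase plasma protein on that list, had 4596 ± 3108 CPM in mature LERKO and 2757 ± 258 CPM in mature control livers, with 9245 CPM as its highest value, and Pon1, the paraoxonase carried by high-density lipoprotein, had 916 ± 208 CPM and 912 ± 76.5 CPM in the same groups (SD, n = 4 each).

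Cholesterol efflux genes, with Lcat counted among the 13 tested, had medians of -0.06 in mature and -0.19 in immature mice. In immature mice 12 of the 13 were negative, beside 46.8% of all genes, with 0 called. In that comparison stellate, endothelial and tested cholangiocyte markers were all positive, as given above. Their stellate and endothelial sums were highest in library 4 of immature LERKO. Kupffer cell markers were positive for 9 of 12 (median 0.03), and hepatocyte markers negative for 7 of 10 (median -0.05). The part of the cell markers in the efflux values was not tested. Abcg5, a sterol transporter of the bile canaliculus, had -0.19 (SE 0.15) at both stages. Of 32 regulators of apolipoprotein genes, Esr1 was the 1 gene called, lower in LERKO at both stages, and the list medians were 0.00 and -0.07. Cebpb and Cebpa, liver transcription factors with the highest levels per length on that list (531 and 511 TPM), had -0.26 (SE 0.21) and -0.02 (SE 0.12) in mature and -0.44 (SE 0.21) and -0.13 (SE 0.12) in immature mice, and none of these passed.

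Across the 16 livers some of the 10 genes moved together. How often other genes of similar level do so was not tested, so the count of pairs describes these 10 alone. Of 45 pairs, 8 had a Pearson correlation of log2 CPM with an adjusted p below 0.05 (permutation test, 100000 resamples, two-sided, Benjamini-Hochberg over 45 pairs), all of them positive. Apoa2 and Apoc1, on different chromosomes, had the highest, r = 0.86 and Spearman's rho = 0.83 (permutation p = 6e-05 and 0.00013, adjusted p = 0.0027 and 0.0034). Apoa2 and Apoe had r = 0.80 and rho = 0.83 (permutation p = 0.00019 and 0.00015, adjusted p = 0.0029 and 0.0034), and Apoe and Apoh had r = 0.79 and rho = 0.72 (permutation p = 0.00019 and 0.0022, adjusted p = 0.0029 and 0.024). The others were Apoa2 with Apoh (r = 0.70), Apoa5 with Apoh (0.68), Apoh with Lcat (0.65), Apoa4 with Apoc2 (0.65) and Apoc1 with Apoe (0.65).

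Neighbours in the genome did not stand out among these pairs. Of the 9 pairs within a cluster, 1 passed (Apoc1 and Apoe), and of the 36 others, 7 passed. Pairs with Apoc2 rest on its uncertain count. Apoc1 and Apoc2 had r = 0.26, which was 0.60 without library 4 of mature LERKO. It was -0.46 without the 2 libraries farthest from the median of Apoc1. Apoa1 and Apoc3, whose ends lie 2466 bases apart, had r = -0.13. Apoa4 and Apoa5 had r = -0.54, which was -0.06 without the 2 libraries farthest from the median of Apoa4. For each pair the 2 libraries farthest from the median of its first-named gene were left out, so extremes of the second gene could remain. Then 2 pairs passed, Apoa2 with Apoc1 (r = 0.79) and Apoa2 with Apoe (r = 0.80), and the other 6 pairs did not pass with 14 libraries. Of those 6, Apoc1 with Apoe (r = 0.71) and Apoa2 with Apoh (r = 0.68) kept correlations of similar size, whereas Apoh with Lcat (r = 0.30) and Apoa4 with Apoc2 (r = 0.31) did not. Within groups, after removal of the group means, 0 pairs passed (smallest adjusted p = 0.091, permutation test), although Apoa2 and Apoc1 still had r = 0.82. The livers share scaling factors, and library composition enters every pair.

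**Figure D4:**
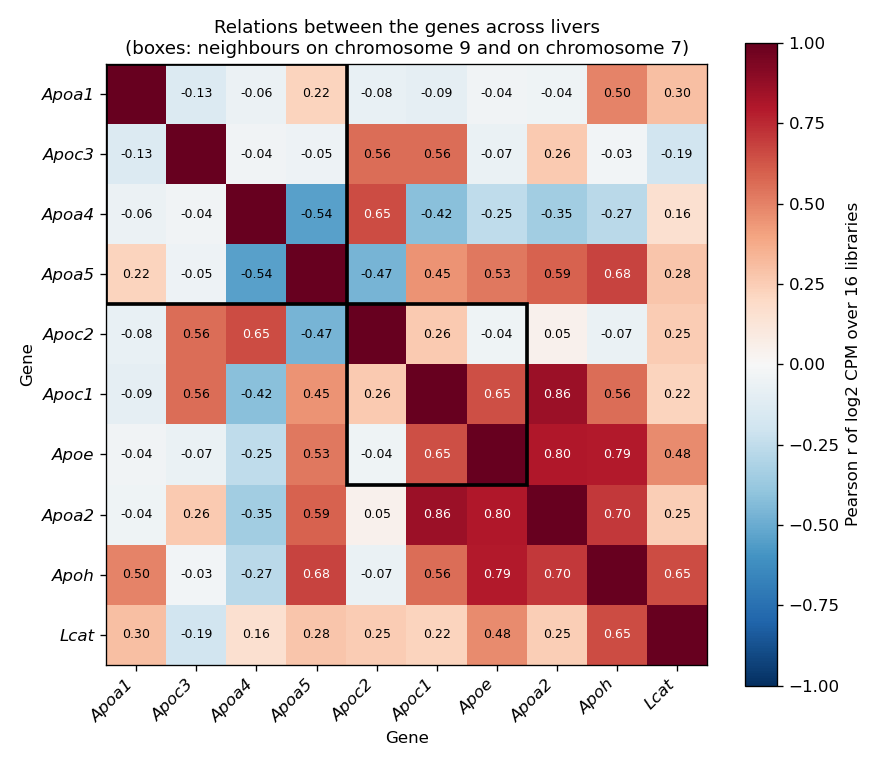
Pearson correlation of log2 CPM over 16 livers for each pair of the 10 genes, on a colour scale from -1 to 1. Boxes enclose the neighbours on chromosome 9 and on chromosome 7, and the highest values, 0.86 for Apoa2 with Apoc1 and 0.80 for Apoa2 with Apoe, lie outside the boxes.

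Among 3669 other genes of at least moderate level, those most like each of the 10 over the 16 libraries were named by Pearson's r, as a description. Apoa2 was closest to Etfa (r = 0.97), a subunit of the mitochondrial electron transfer flavoprotein, then to Acaa1b (0.93) and Rbp4 (0.92). Apoc1 was closest to Sar1b (0.95), a GTPase of vesicles leaving the endoplasmic reticulum, Ccdc107 (0.95) and Uqcrb (0.94). Apoh was closest to Hsd17b6 (0.93), Acaa2 (0.89) and Cyp2e1 (0.89), Apoe to Hsd17b11 (0.90), Abcb6 (0.90) and Pcbp2 (0.90), and Lcat to Ttpa (0.89), the vitamin E transfer protein, Crot (0.88) and Abcb4 (0.88). For Apoa1 the order was Tbc1d15 (0.88), Serpina3k (0.85) and Eif4ebp3 (0.84), for Apoa4 Cog4 (0.87), Siae (0.83) and Pigt (0.78), and for Apoa5 Cyp2c37 (0.86), Zbtb44 (0.84) and Gid4 (0.83). Apoc3 was closest to Ndufa11 (0.88), Romo1 (0.86) and Ppia (0.86), and Apoc2 to Tm4sf4 (0.91), the overlapping Gm44805 (0.88) and Hibch (0.87). The highest of 3669 correlations is large by selection, and depth and composition are shared by all genes of a library.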

How the data were processed

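Per the labels' protocols, stranded mRNA libraries were made from liver RNA of individual mice. The submitters' processing notes name mm10, STAR, R 4.05 and limma. No counting program or strand setting is given in the sources used here. The authors deposited 1 table of raw counts per gene. In 5 columns the deposited values are estimated counts, since 10 values in 2 predicted genes were not whole, and these were rounded. Genes were kept by filterByExpr (minimum count 10, minimum total 15), which all 10 genes passed, and tested with edgeR 4.0.16 (TMM, glmQLFit, glmQLFTest) in 1 model with a coefficient per group. P-values were adjusted over 13379 genes (Benjamini-Hochberg, 0.05). Standard errors are the fold change over the square root of F. TPM used GENCODE vM21 exonic lengths of tested genes. Correlations used log2 CPM (prior count 2). The common biological coefficient of variation was 21.2%. The code was tested on simulated data. The 10 genes and all lists were chosen with earlier results of these data known. All 10 genes were named, and from each list the 2 genes with the highest level per length. Among the regulators Esr1, the 1 gene called, was named as well. Apob comes after P4hb by that level on the assembly list, and was added under the first list after its values were seen. Likeness took the 3 genes with the highest r.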

Additional observations from a re-analysis of the deposited data

Results flagged for a closer look

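Of 40 sets of 4 livers (10 genes in 4 groups), 5 held a value that stood apart from the other 3 by Dixon's criterion, which chance meets in about 1 set in 20. Apoa1 had 7002 CPM in library 1 of mature LERKO, below 9221 to 9670 CPM in the other 3. Apoh had 1927 CPM in library 4 of mature LERKO, the liver with 187600 CPM of acute-phase transcripts, below 2159 to 2198 CPM in the others. Library 3 of immature LERKO was high for Apoc1, at 6437 CPM against 3565 to 4008 CPM, and for Apoc2, at 381.6 CPM against 228.5 to 253.1 CPM. Lcat had 373.6 CPM in library 4 of immature LERKO, the immature liver with muscle transcripts, below 571.1 to 599.9 CPM in the others. Their causes were not tested.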

How the results depend on the processing

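For the 10 genes, 70 fold changes were recomputed under 2140 alternative values (DESeq2, limma-voom with and without quality weights, other scalings and filters, fits to the compared groups alone, and single or several libraries left out). The settings chosen after seeing the data, named below, are included. Among these values 0 were called. The smallest adjusted p was 0.139, for Apoh between the stages in controls (limma-voom with quality weights). Sign changes were seen in 88 values of 27 of the fold changes. The largest of these fold changes was the Apoa4 difference of effects at 0.38. It was -0.05 without the 3 libraries with most muscle transcripts and library 4 of mature LERKO. Of all genes, DESeq2 called 27 in mature and 13 in immature LERKO against control, against 1 each with edgeR. It called 74 and 6 between stages in control and LERKO livers and 22 for the difference of effects, against 0 with edgeR, and 3 and 29 for the mean knockout and mean stage effects, against 1 and 0. For the stages in controls, 8 were called with quality weights and 6 with the compared groups alone. Leaving out 1 library gave 1 to 2 genes for mature LERKO against control (2 without library 1 of mature LERKO), 0 to 1 for the stages in controls (1 without library 4 of mature LERKO) and 0 to 1 for the stages in LERKO (1 without library 1 of mature LERKO). Of the 45 pairs, 8 passed by Pearson's r, 5 by Spearman's rho and 0 with group means removed. Without the 2 libraries farthest from the median of the first gene of a pair, 2 passed. Without library 4 of mature LERKO 5 passed, and these include Apoe with Lcat, which was not among the 8. In all versions 0 passed. The cause was not tested. No paired analysis was possible because the labels carry no replicate numbers. Settings that left out the libraries with muscle transcripts together with library 4 of mature LERKO, or summed Apoc2 with Gm44805, were chosen after seeing the data. The printed 95% intervals give the sizes of change that the spread between livers leaves possible.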
